A study of Danio rerio with 6 samples.

Results

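Markers of neural progenitors and of neurons were followed in zebrafish embryos, taken whole at 72 hours post-fertilization (hpf), with and without miR-34a. The progenitor markers were sox2, pax6a, gfap, neurog1 and ascl1a, and the neuron markers were neurod1, elavl3, elavl4, snap25a and syt1a. These 10 symbols were matched by name, ignoring case, to Ensembl gene IDs in a table of 32520 genes, which gave 12 IDs. A single ID carried the symbol for 8 of the names. The symbols PAX6 and SNAP25 each stood beside 2 IDs with no letter to tell the zebrafish copies apart, so both IDs are given for pax6a and for snap25a.

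The poly-A libraries numbered 3 for wild-type and 3 for miR-34a-/-, and about 30 whole, untreated embryos were pooled for each. The mutants carried a CRISPR/Cas9 deletion of miR-34a, a microRNA gene switched on by p53, and were bred as a separate homozygous line. Both genotypes were on casper, a background without melanophores and most iridophores, and the wild-type embryos were not littermates of the mutants, so genotype and line cannot be told apart. The labels do not say whether the pools came from separate clutches, so p-values measure the spread between these pools only.

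In the vertebrate nervous system, progenitors and radial glia line the ventricles and divide there, and proneural transcription factors commit some of their daughters to become neurons. Newborn neurons leave the dividing zone, switch on RNA-binding proteins of the Elav family, and later build the machinery that releases transmitter at synapses. In the zebrafish larva at this stage brain, spinal cord and retina hold dividing progenitors and working neurons side by side. miR-34 family members have been tied to neuronal differentiation in other vertebrates.

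Total counts ran from 10273343 to 16369150 per library, and 19240 genes were kept after filtering out low counts. Levels are in CPM, a gene's counts relative to the library size scaled by the TMM method of edgeR, and 3 counts corresponded to 0.186 to 0.293 CPM across the 6 libraries. No library held a count (0 of 6) for MIR34A, mir34b or MIR34C, so the genotype labels could not be checked on the deleted gene. The library of miR-34a-/- replicate 1 stood apart on several measures, though not on all. Chi-square per degree of freedom, which also grows with depth, was 6.62 and 12.7 between it and the other miR-34a-/- libraries, and 1.73 to 3.79 within wild-type. Over 20 tested photoreceptor gene IDs, 17 were lowest in that library, and their summed level was 548 CPM there against 924 to 1926 CPM in the other 5, with none of them at 0. Of 10 tested genes of dividing cells, 9 were highest in it, with a sum of 1379 CPM against 1116 to 1228 CPM. Of all 19240 genes tested, 4057 were lowest and 3948 highest in that library. Each marker, paralog and list gene described on its own below is therefore also given without that library where its call changed. Calls of other list genes in that fit are given as counts. Where some of these are also named, they were picked after their values were seen.

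All 12 marker IDs passed the filter, and none was called different between the genotypes by the quasi-likelihood test of edgeR at a Benjamini-Hochberg adjusted p under 0.05. The unadjusted p was under 0.05 for 0 of the 12, beside 1566 higher and 1386 lower of all 19240 genes tested. The DESeq2 Wald test also called 0 of the 12. Over all 19240 genes tested, 2.6% were called, with 1.33% higher and 1.27% lower in miR-34a-/-, a background at which few calls among 12 IDs would be seen. The fitted difference was positive for 3 marker IDs and negative for 9, beside 9248 positive and 9992 negative over all genes. The 95% intervals of the fold, miR-34a-/- over wild-type, lay between 0.688 and 1.45 for all 12. In bulk samples of whole embryos, fewer cells of a type and less RNA per cell cannot be told apart. CPM is not divided by transcript length, so levels are compared below between libraries and not between genes.

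**Figure D1:**
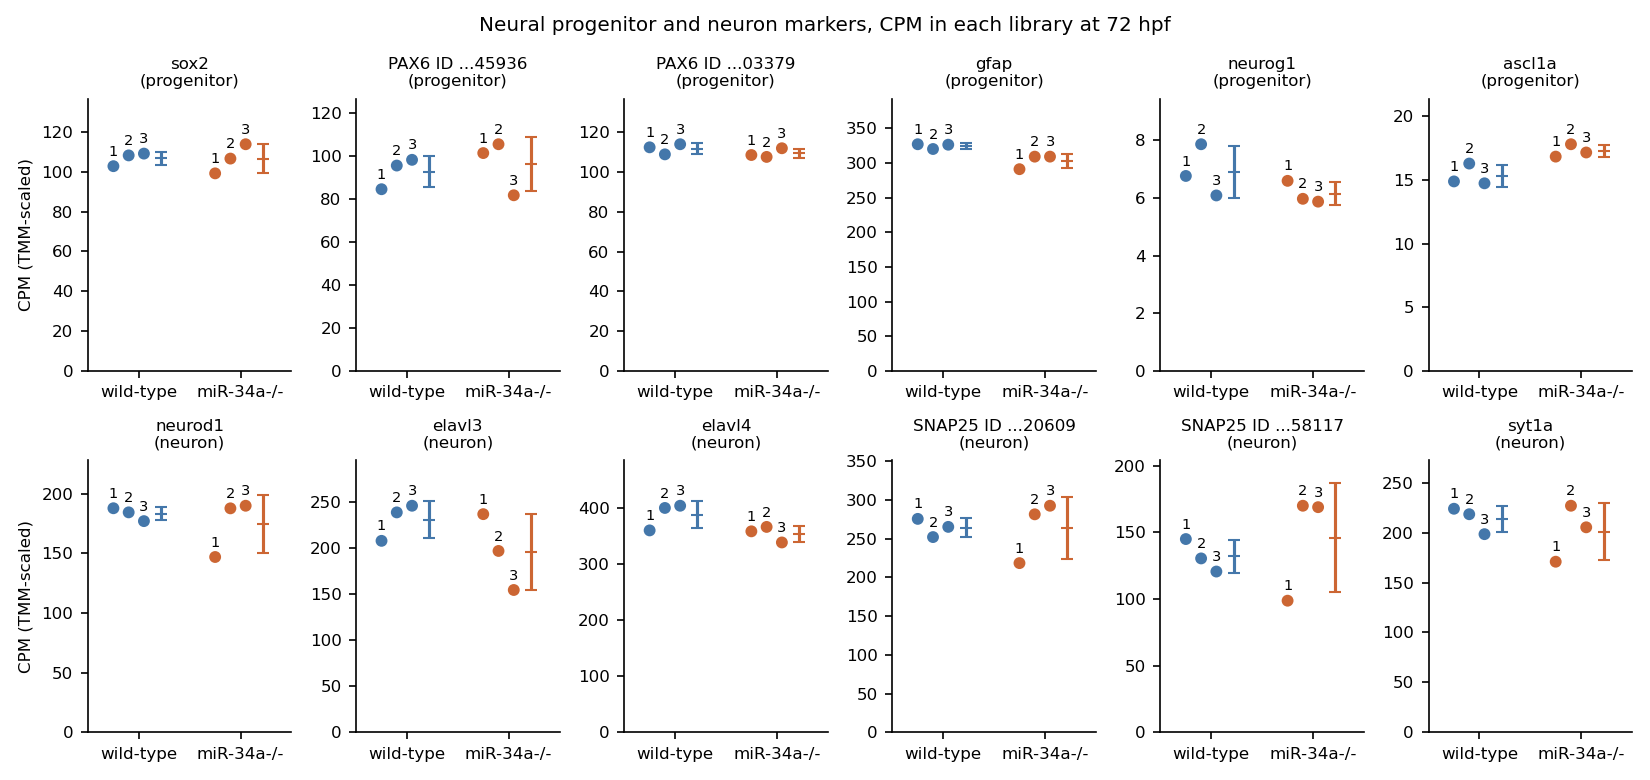
CPM of each marker ID (y axis, from 0) in the 3 wild-type (blue) and 3 miR-34a-/- (orange) libraries, with points numbered by replicate and bars for the mean ± SD. The genotypes do not overlap for gfap and ascl1a, and miR-34a-/- replicate 1 is the lowest library for neurod1, both SNAP25 IDs and syt1a.

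Values for the 3 libraries of a genotype follow in the order of replicates 1, 2 and 3. The fold changes are fitted by edgeR on the log2 scale, miR-34a-/- minus wild-type, with approximate standard errors derived from its test statistic. sox2 (ENSDARG00000070913) encodes a transcription factor that keeps neural progenitors in their dividing state. Its level was 103, 108 and 109 CPM in wild-type and at 99.2, 107 and 114 CPM in miR-34a-/-. The mutant libraries surrounded the wild-type ones, and the log2 fold change was -0.00075 ± 0.073, with a 95% interval from -0.16 to 0.16 (adjusted p = 0.997). Of the 12 IDs this one and SNAP25 ENSDARG00000020609 had fitted differences nearest to 0.

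pax6a belongs to the paired-box factors that pattern the eye, forebrain and hindbrain and mark progenitors as well as some retinal neurons. The PAX6 ID ENSDARG00000045936 stood at 84.5, 95.5 and 98.2 CPM in wild-type and at 101, 105 and 81.7 CPM in miR-34a-/-. Its lowest value and its highest value were both in mutant libraries, and the log2 fold change was 0.05 ± 0.10 (adjusted p = 0.857). The other PAX6 ID, ENSDARG00000103379, was at 112, 109 and 114 CPM in wild-type and at 109, 108 and 112 CPM in the mutant. It was among the steadiest of the markers, with a coefficient of variation (CV, the SD as a percentage of the mean) of 2.33% in wild-type and 2.09% in miR-34a-/-. Its log2 fold change was -0.03 ± 0.06 (adjusted p = 0.859). Summed over both IDs, PAX6 came to 197, 204 and 212 CPM in wild-type and to 209.8, 213 and 194 CPM in miR-34a-/-, so the genotypes overlapped whichever way reads divide between the copies.

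gfap (ENSDARG00000025301) encodes the intermediate filament of radial glia and, in the retina, of Müller glia. It was at 327, 320.1 and 326 CPM in wild-type and at 291, 309 and 309 CPM in miR-34a-/-. All 3 mutant libraries lay below all 3 wild-type libraries, with means of 324 ± 3.79 (SD, n = 3) and 303 ± 10.5 CPM. The log2 fold change of -0.10 ± 0.06 missed the threshold in the edgeR fit (adjusted p = 0.494), and its 95% interval ran from -0.24 to 0.04. The tightest wild-type group of the set was that of gfap, with a CV of 1.17%, below the 1.58% that counting error alone gives at its depth.

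The proneural markers were read at the lowest counts. neurog1 (ENSDARG00000056130), a basic helix-loop-helix factor that starts sensory and early central neurons, was at 6.76, 7.86 and 6.08 CPM in wild-type and at 6.59, 5.96 and 5.87 CPM in miR-34a-/-. These values rest on 61 to 109 counts per library, at which counting error gives a CV of 10.8%, beside a wild-type CV of 13.0%. The log2 fold change was -0.17 ± 0.16, with a 95% interval from -0.53 to 0.19 (adjusted p = 0.664 by edgeR). The interval spans 0.

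ascl1a (ENSDARG00000038386) is a proneural factor of central progenitors that also acts in regeneration of the zebrafish retina. It was at 14.9, 16.3 and 14.7 CPM in wild-type and at 16.8, 17.8 and 17.1 CPM in miR-34a-/-. Every mutant library lay above every wild-type library, with means of 15.3 ± 0.86 and 17.3 ± 0.49 CPM (SD, n = 3). The fitted log2 fold change was 0.17 ± 0.10, a 1.13-fold difference whose 95% interval ran from 0.963-fold to 1.32-fold (adjusted p = 0.458 by edgeR). The direction stayed positive in all 10 alternatives tried, with a log2 fold change from 0.15 to 0.22 and an adjusted p from 0.289 to 0.827.

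Non-overlapping genotypes were thus seen for 2 of the 12 marker IDs (16.7%), ascl1a above and gfap below, while 21.2% of all genes tested had genotypes that did not overlap. The share in the markers was therefore near that background. Among the 6 progenitor IDs the median log2 fold change was -0.02, beside -0.01 over all genes tested.

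**Figure D2:**
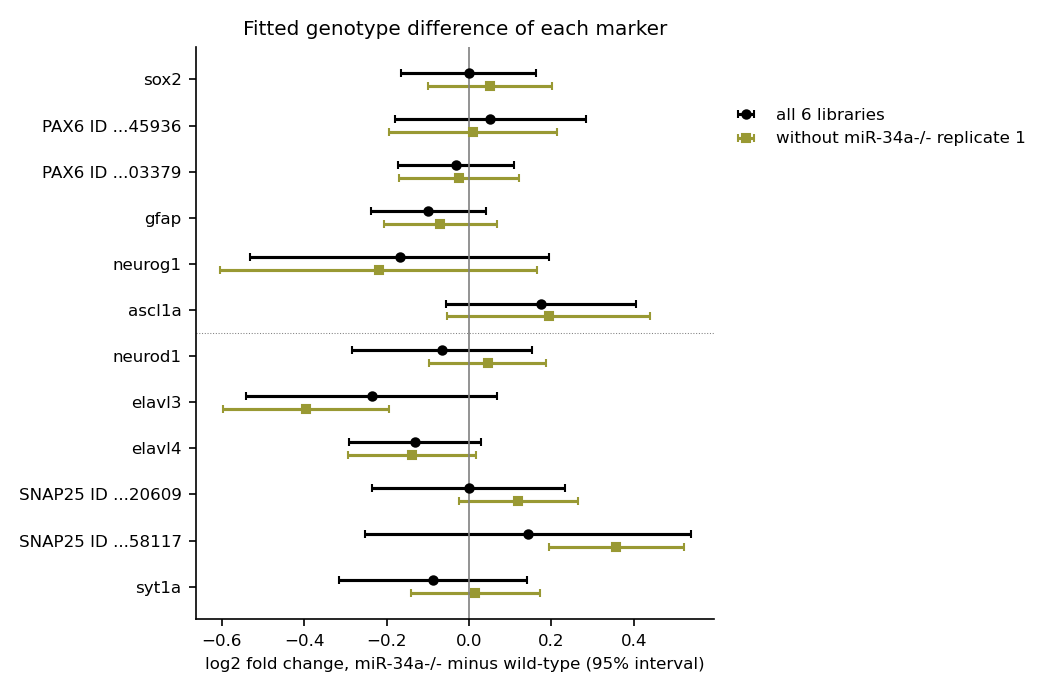
Fitted log2 fold change, miR-34a-/- minus wild-type (x axis), of each marker ID with its 95% interval, from all 6 libraries (black) and without miR-34a-/- replicate 1 (green). With all libraries every interval spans 0, and without that library those of elavl3 and SNAP25 ENSDARG00000058117 lie on opposite sides of 0.

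Most neuron markers varied more between the mutant libraries than between the wild-type libraries, and none of the 6 neuron IDs was called with all libraries kept. neurod1 (ENSDARG00000019566) encodes a helix-loop-helix factor that drives neuronal differentiation and is also made in photoreceptors and endocrine islets. It was at 188, 184 and 177 CPM in wild-type and at 147, 188 and 189.9 CPM in miR-34a-/-. Mutant replicates 2 and 3 were at or just above the top of the wild-type range and replicate 1 was at 0.803 of the wild-type mean. The log2 fold change was -0.07 ± 0.10 (adjusted p = 0.792 by edgeR), and 0.04 ± 0.07 without that library (adjusted p = 0.705). The summed level of 9 islet and pituitary IDs was 132 to 146 CPM in wild-type and at 132 to 149.5 CPM in miR-34a-/-, none of them at 0. The part of photoreceptor and islet cells in the neurod1 values was not tested.

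elavl3 (ENSDARG00000014420), the RNA-binding protein HuC, is a standard label of postmitotic neurons in zebrafish. It was at 208, 238 and 246 CPM in wild-type and at 237, 197 and 154 CPM in miR-34a-/-. Mutant replicate 1 lay within the wild-type range, and replicates 2 and 3 lay below every wild-type library. With all libraries the log2 fold change was -0.24 ± 0.14 and its 95% interval ran from -0.54 to 0.07 (adjusted p = 0.449 by edgeR). Without miR-34a-/- replicate 1 elavl3 fell by 0.40 ± 0.095 on the log2 scale, to 0.76 of the wild-type level (adjusted p = 0.00988 by edgeR). That fit called 15.6% of the genes it tested.

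elavl4 (ENSDARG00000045639), the related RNA-binding protein HuD of differentiated neurons, was at 361, 401 and 405 CPM in wild-type and at 359, 367 and 339 CPM in miR-34a-/-. Replicate 2 of the mutant lay just above the lowest wild-type library and the other mutant libraries below it. The log2 fold change was -0.13 ± 0.07, with a 95% interval from -0.29 to 0.03 (adjusted p = 0.425 by edgeR), and -0.14 without miR-34a-/- replicate 1 (adjusted p = 0.218). The fitted value was negative in all 10 alternatives, from -0.18 to -0.10.

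snap25a is a membrane-bound SNARE protein that helps to fuse synaptic vesicles with the plasma membrane. The SNAP25 ID ENSDARG00000020609 was at 276, 252 and 265 CPM in wild-type and at 218, 281 and 293 CPM in miR-34a-/-. Mutant replicate 1 was the lowest of the 6 libraries and replicates 2 and 3 the highest, so that the fitted log2 fold change came to -0.00065 ± 0.10 (adjusted p = 0.998 by edgeR). The other SNAP25 ID, ENSDARG00000058117, was at 145, 131 and 121 CPM in wild-type and at 98.8, 170.0 and 169 CPM in the mutant, so that mutant replicate 1 was again the lowest library and replicates 2 and 3 the highest, with a wider spread. Its mutant CV of 28.0% was the largest among the 12 IDs, beside 9.28% in wild-type.

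With all libraries the log2 fold change of SNAP25 ENSDARG00000058117 was 0.14 ± 0.18, and its 95% interval ran from -0.25 to 0.54 (adjusted p = 0.747 by edgeR). Without miR-34a-/- replicate 1 it rose 1.28-fold, a log2 fold change of 0.36 ± 0.077 (adjusted p = 0.00499 by edgeR). The 2 SNAP25 IDs summed to 421, 383 and 386 CPM in wild-type and to 317, 451 and 461 CPM in miR-34a-/-, with the mutant libraries again on both sides of the wild-type ones. Reads of near-identical copies may have been split between the IDs, so the value of each copy is less certain than the sum.

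syt1a (ENSDARG00000030614, listed under the symbol SYT1) encodes the vesicle protein that senses calcium and triggers release of transmitter. It was at 224, 218 and 198 CPM in wild-type and at 171, 227 and 205 CPM in miR-34a-/-. Replicate 1 of the mutant lay below the other 5 libraries at 0.80 of the wild-type mean, and replicates 2 and 3 lay within or just above the wild-type range. The log2 fold change was -0.09 ± 0.10 (adjusted p = 0.728 by edgeR), and 0.02 without that library (adjusted p = 0.919). The study used a list of computationally predicted targets of miR-34, which gives this ID the name syt1a. For this predicted target, the difference between the genotypes did not exceed the spread between these libraries.

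**Figure D3:**
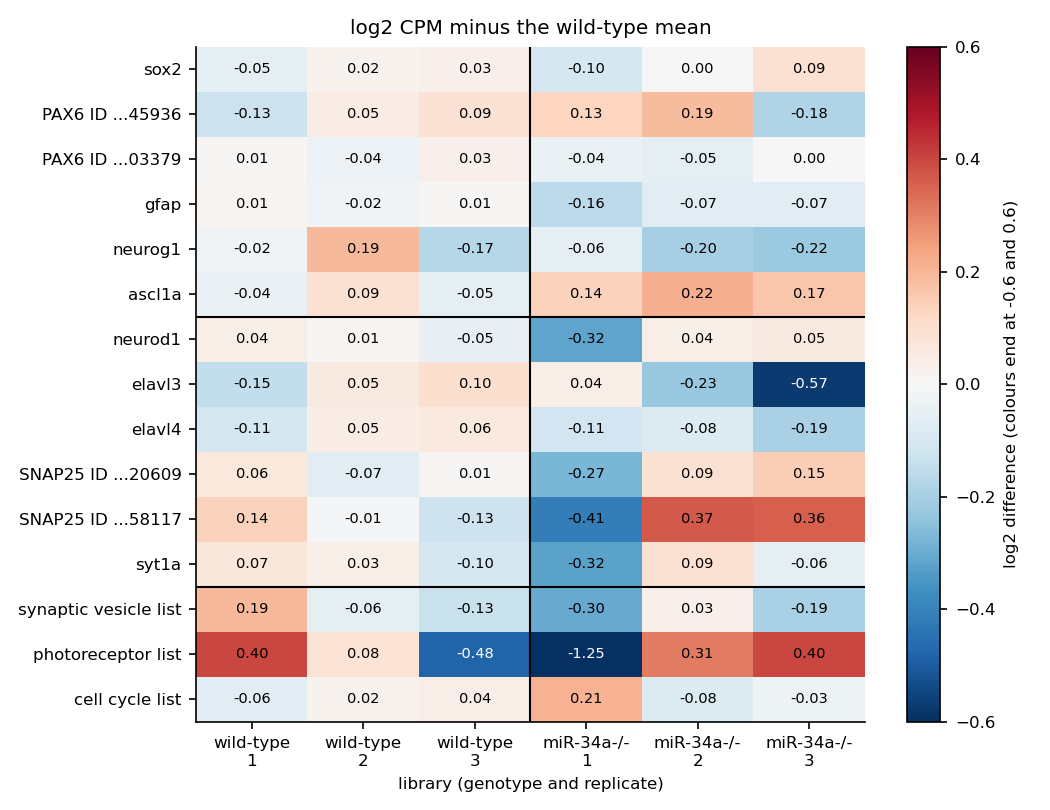
Difference of each library's log2 CPM from the wild-type mean for the 12 marker IDs (rows, progenitor above neuron), with the mean difference of the synaptic vesicle, photoreceptor and dividing-cell lists below, coloured from -0.6 (blue) to 0.6 (red) and printed in each cell. miR-34a-/- replicate 1 is at -0.32 for neurod1 and syt1a and -0.41 for SNAP25 ENSDARG00000058117, in the same column as -1.25 for the photoreceptor list and 0.21 for the dividing-cell list.

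Leaving miR-34a-/- replicate 1 out gave calls for elavl3 and for 1 SNAP25 ID, or 2 of 12, in opposite directions. The same step raised the number of genes called from 500 to 3022, and the 2 of 12 were read against 15.6% of all genes. In that library the values of neurod1, of both SNAP25 IDs and of syt1a were the lowest of the 6, which is 4 of 6 neuron IDs, while 21.1% of all genes tested were lowest there. Among the 6 progenitor IDs, sox2 and gfap were lowest in it. Photoreceptors make several of the neuron markers, and the part of the low photoreceptor genes of this library in its neuron marker values was not tested.

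The spread between mutant libraries was larger than that between wild-type libraries for 5 of the 6 neuron IDs, elavl4 being the exception, and the median CV was 14.6% in miR-34a-/- and 6.27% in wild-type. For the progenitor IDs it was larger in 3 of 6, with a median of 4.91% in miR-34a-/- and 4.40% in wild-type. Over the 14194 tested genes with a mean of at least 5 CPM, 68.2% had the larger CV in the mutant, with medians of 9.84% and 6.84%. Variances were not tested, since 3 libraries per genotype leave them poorly known.

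Progenitor and neuron genes were then set against each other as a balance, the mean log2 CPM of the 5 neuron markers minus that of the 5 progenitor markers, with the IDs of a pair summed. The balance was 2.19, 2.13 and 2.19 in wild-type and 1.99, 2.17 and 2.08 in miR-34a-/-. Mutant replicate 2 lay among the wild-type libraries and the others below them, with means of 2.17 ± 0.033 and 2.08 ± 0.088 (SD, n = 3). The difference of -0.088 corresponds to a neuron-to-progenitor ratio of 0.941 in the mutant relative to wild-type, and it was -0.044 without miR-34a-/- replicate 1. No p is given, since the score runs over chosen genes. The pooled SD of the balance within genotypes was 0.067, so the difference was near the spread between libraries.

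Each class was also averaged on its own, ID by ID and without summing the pairs. The progenitor IDs averaged -0.02, 0.01 and -0.04 on the log2 scale relative to wild-type in mutant replicates 1, 2 and 3, and the neuron IDs -0.23, 0.05 and -0.04. The wild-type libraries ranged from -0.04 to 0.05 for the progenitor IDs and from -0.02 to 0.01 for the neuron IDs. The progenitor IDs of all 3 mutant libraries lay within the wild-type range. Averaged this way, the neuron IDs of all 3 lay outside it, above in replicate 2 and below in replicates 1 and 3, with the widest gap in replicate 1. With the SNAP25 pair summed, the neuron markers averaged 8.05, 8.08 and 8.06 log2 CPM in wild-type and 7.86, 8.07 and 7.96 in miR-34a-/-. Mutant replicate 2 then lay within the wild-type range, and replicates 1 and 3 stayed below it.

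**Figure D4:**
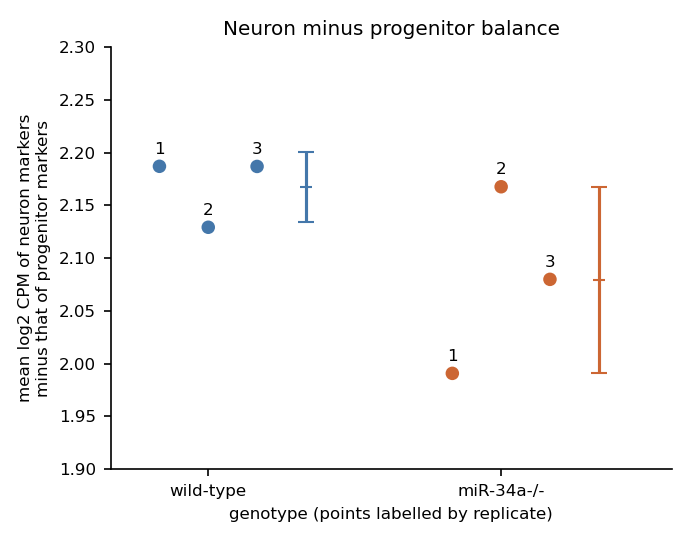
Balance of neuron over progenitor markers (y axis, mean log2 CPM of 5 neuron markers minus that of 5 progenitor markers; the axis does not start at 0) in each library, with points numbered by replicate and bars for the mean ± SD. The wild-type libraries lie between 2.13 and 2.19 and the miR-34a-/- libraries between 1.99 and 2.17.

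The paralogs of the markers were also read. ascl1b had a log2 fold change of 0.06 ± 0.12, NEUROD2 of 0.12 ± 0.20, and NEUROD4 of -0.10 ± 0.11. The NEUROD6 IDs ENSDARG00000020794 and ENSDARG00000040008 had values of -0.15 ± 0.08 and -0.16 ± 0.13. edgeR and the DESeq2 Wald test called none of the 5, none had an unadjusted p under 0.05 in edgeR, and the smallest adjusted p was 0.446. NEUROD4, a factor of differentiating neurons and retina, was at 67.8, 76.0 and 74.0 CPM in wild-type and at 80.7, 61.1 and 60.9 CPM in the mutant. As for elavl3, replicates 2 and 3 lay below every wild-type library, and without replicate 1 the gene fell by 0.25 on the log2 scale (adjusted p = 0.04 by edgeR). neurog3, ELAVL2 and syt1b had 0 to 7 counts per library and were not tested.

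Other genes of the same cell states were taken as 5 lists of 136 IDs, of which 124 were tested. edgeR called 1 higher and 2 lower, or 2.42%, beside 2.6% of all genes. In the list of 32 progenitor and radial glia IDs, with SOX1, SOX3, nes, NOTCH1 and glutamate transporters among them, 1 was higher, 1 was lower, and the median log2 fold change was 0.05. The 18 proneural and newborn-neuron IDs held no call, with a median of -0.04, and neither did the 31 pan-neuronal IDs of cytoskeleton and adhesion, with a median of 0.03. The 24 synaptic vesicle IDs held no call either, with a median of -0.12, while the 19 IDs of transmitter synthesis and transport held 1 lower call and a median of -0.12. At an unadjusted p under 0.05 these lists held 3, 1, 5, 2 and 3 IDs in that order. Together that was 6 higher and 8 lower of 124, beside 1566 higher and 1386 lower of all 19240 genes tested. The DESeq2 Wald test also called 0 in the proneural, pan-neuronal and synaptic lists. In the proneural list, dld was matched, ignoring case, to an ID listed as DLD (ENSDARG00000008785). That symbol may stand for another gene, and the ID was not called (adjusted p = 0.725 by edgeR).

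FABP7 (ENSDARG00000007697), the brain lipid-binding protein of radial glia, was at 525, 566 and 501 CPM in wild-type and at 685, 692 and 755 CPM in miR-34a-/-. The genotypes did not overlap, and it rose by a log2 fold change of 0.42 ± 0.07 (adjusted p = 0.0157 by edgeR). Its log2 fold change stayed between 0.38 and 0.47 in all 10 alternatives, while the call was lost in 5 of them, with an adjusted p of up to 0.127. Its other copy ENSDARG00000034650 averaged 6.53 CPM in wild-type and a similar 6.78 CPM in the mutant, with a log2 fold change of 0.06 (adjusted p = 0.901). sox2 and gfap, the radial glia markers of the set, had log2 fold changes of -0.00075 and -0.10 in the same fit.

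VIM (ENSDARG00000044501), an intermediate filament of glia and mesenchyme that gfap can assemble with, was at 5.95, 5.87 and 4.56 CPM in wild-type and at 0.98, 1.08 and 0.64 CPM in miR-34a-/-. It fell by 2.63 ± 0.27 on the log2 scale (adjusted p = 0.0007 by edgeR) and stayed called in all 10 alternatives. Its values rest on 96, 62 and 48 counts in wild-type and on only 11, 11 and 10 counts in miR-34a-/-. The VIM copy with most reads, ENSDARG00000010008, was at 105, 101 and 102 CPM in wild-type and at 95.4, 104 and 105 CPM in the mutant, a log2 fold change of -0.02 ± 0.07 (adjusted p = 0.939). How reads that match both copies were counted is not given in the sources used here.

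SLC17A6 (ENSDARG00000041150), the vesicular transporter that loads glutamate in excitatory neurons, was at 53.7, 48.7 and 52.5 CPM in wild-type and at 36.3, 40.7 and 40.6 CPM in miR-34a-/-. All mutant libraries lay below all wild-type ones, and it fell by 0.40 ± 0.08 on the log2 scale (adjusted p = 0.0287 by edgeR). In all 10 alternatives its log2 fold change stayed between -0.44 and -0.35, while the call was lost in 5 of them, with an adjusted p of up to 0.153. Its second copy ENSDARG00000001127 went from a mean of 23.2 ± 1.91 to 16.7 ± 4.92 CPM (SD, n = 3), a log2 fold change of -0.49 ± 0.19 that missed the threshold (adjusted p = 0.265). Without miR-34a-/- replicate 1 this copy also fell, by 0.67 ± 0.16 on the log2 scale (adjusted p = 0.0104 by edgeR).

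In each list without a call, the gene with the smallest p also missed the threshold. For the newborn-neuron list this was TBR1, a factor of excitatory forebrain neurons, with means of 23.1 ± 0.92 CPM in wild-type against 19.5 ± 1.08 CPM in miR-34a-/- (log2 fold change -0.24, adjusted p = 0.261 by edgeR). For the pan-neuronal list it was gap43, a protein of growing axons, at 169, 172 and 165 CPM in wild-type and at 175, 211 and 239 CPM in miR-34a-/- (log2 fold change 0.31, adjusted p = 0.185). For the synaptic list it was CPLX2, a complexin that binds the complex containing SNAP25, at 69.6, 80.1 and 79.1 CPM in wild-type and at 67.7, 65.5 and 64.7 CPM in miR-34a-/- (log2 fold change -0.21, adjusted p = 0.227). The genotypes did not overlap for TBR1, gap43 or CPLX2, which were picked by their smallest p. Over their whole lists the genotypes did not overlap for 1 of 18, 4 of 31 and 2 of 24 IDs, beside 21.2% of all genes tested. The unadjusted p of TBR1, gap43 and CPLX2 by edgeR was 0.029, 0.014 and 0.021 in that order. None passed after adjustment over all genes. Without miR-34a-/- replicate 1 gap43 was called (adjusted p = 0.00092 by edgeR), and TBR1 and CPLX2 were not.

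The synaptic list lay mostly on the negative side, with 22 of 24 fitted values below 0, beside 9992 of 19240 over all genes. The transmitter list leaned the same way, with 15 of 19 below 0, and the progenitor list the other way, with 22 of 32 above 0. Below 0 were 11 of 18 in the proneural list and 13 of 31 in the pan-neuronal list. As with snap25a and syt1a, IDs of the synaptic list were often lowest in miR-34a-/- replicate 1, 14 of 24 or 58.3%. Their summed level there was 1609 CPM against 1910 to 2096 CPM in the other libraries. Without that library 3 of the 24 were called, all lower, and the median log2 fold change was -0.03. The transmitter list kept its median at -0.12 without it and held 4 lower calls, against the same background of 15.6% called in either direction.

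Without miR-34a-/- replicate 1, the 5 lists together held 22 calls of 124 (17.7%), 5 higher and 17 lower, again near the 15.6% of all genes. That 15.6% covers both directions and was not split over all genes, so the directions of the list calls have no background here. The progenitor list held 2 higher and 5 lower calls and the pan-neuronal list 3 higher and 4 lower, while the 1 proneural, 3 synaptic and 4 transmitter calls were all lower. In the progenitor list, NOTCH1 (ENSDARG00000052094) fell by 0.93 ± 0.15 on the log2 scale (adjusted p = 0.000575 by edgeR). With all libraries it was not called, at -0.48 (adjusted p = 0.446 by edgeR). The other NOTCH1 ID, ENSDARG00000103554, was at -0.06 in the fit without that library and was not called. Within the pan-neuronal list, gap43 rose by a log2 fold change of 0.42 and NEFL, a neurofilament, by 0.27. In the same list mapta, a tau protein of axons, fell by 0.55 and NCAM1 (ENSDARG00000056181), an adhesion molecule, by 0.43. With all libraries none of these 4 was called (adjusted p = 0.185, 0.268, 0.375 and 0.522 by edgeR, in that order). Without replicate 1 the other NCAM1 ID, ENSDARG00000007220, was at 0.008 and maptb at -0.06, and neither was called. gap43, NEFL, mapta, NCAM1 ENSDARG00000056181 and NOTCH1 were chosen after their values were seen, from the calls of their lists in that fit. The other progenitor calls were FABP7 (ENSDARG00000007697) and GLUL (ENSDARG00000100003), higher, and VIM (ENSDARG00000044501), msi1a, HES6 (ENSDARG00000007097) and NOTCH3, lower. The second IDs of FABP7, GLUL, VIM and HES6 were not called in that fit. HES6 ENSDARG00000019335 was at 0.0075 there, and MSI1, also not called, at -0.04. The other pan-neuronal calls were STMN4 (ENSDARG00000030106, its second ID not called), higher, and cntn2 and CELF4, lower. Of all these only FABP7 and VIM were called with all libraries kept.

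**Figure D5:**
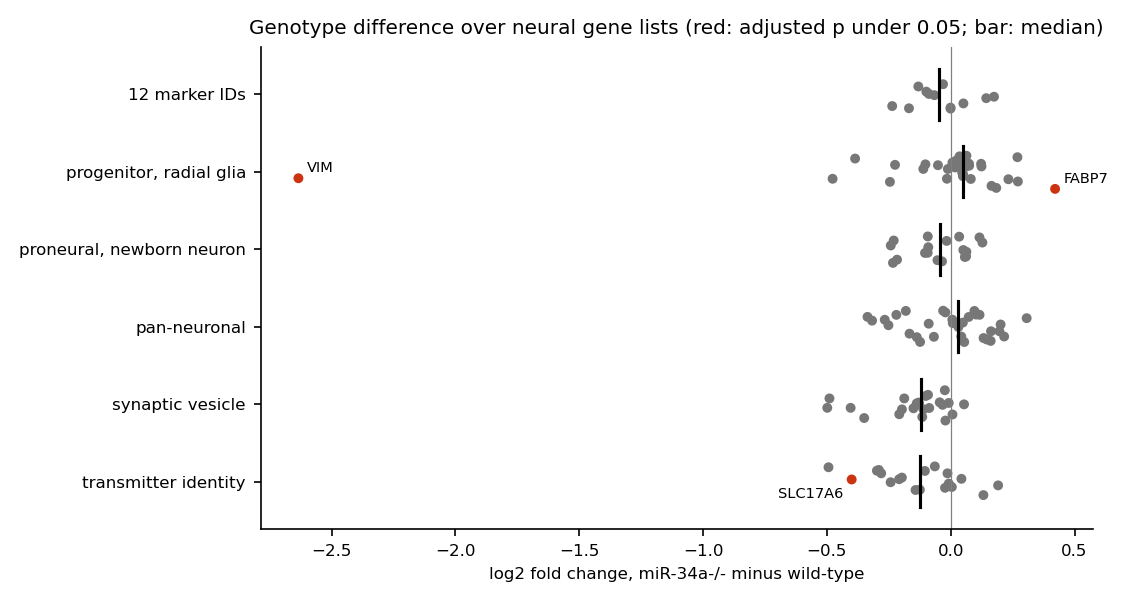
Fitted log2 fold change, miR-34a-/- minus wild-type (x axis), of the 12 marker IDs and of the tested IDs of 5 neural lists (rows; the vertical jitter carries no meaning), with bars for medians and red points for an adjusted p under 0.05. The called IDs are FABP7 at 0.42, VIM at -2.63 and SLC17A6 at -0.40, and the medians lie between -0.12 and 0.05.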

How the data were processed

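Raw counts for each Ensembl gene were deposited by the authors in 1 table, whose 6 columns are the libraries. The submitters' processing notes name Trim Galore 0.4.4, STAR 2.7.8 and the danRer11 genome. Counting mode, use of strand, treatment of reads with several matches and annotation release are not given in the sources used here. The labels give pools of 30 embryos in one place and of 30 to 50 in another. Symbols came from a table of gene IDs and names, which named 29201 of 32520 IDs, and a final a or b was dropped where no symbol matched. The RefSeq table at hand is of another assembly, so no coordinates are given.

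The counts were fitted with edgeR 4.0.16 and limma 3.58.1 under R 4.3.3 (filterByExpr, TMM scaling, quasi-likelihood test of genotype without covariates over the whole table, Benjamini-Hochberg adjustment), and an adjusted p under 0.05 was a call. Of all genes 6010 were at 0 in every library. CPM used TMM-scaled library sizes, and log2 CPM a prior count of 1. The 3-count floors cover counting error only. The edgeR fit was also run on simulated counts with the same dispersion for all genes and no outlying library. That run differs from these data and does not test the fit for them. No pair of libraries of a genotype agreed within sampling noise, the lowest chi-square per degree of freedom being 1.73.

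The members and the gene lists were chosen with earlier results of these data known. Genes named by rule were all members, their paralogs, every called gene of the 5 neural lists and, for a list without calls, the gene with the smallest p. Further list genes called in the fit without miR-34a-/- replicate 1 were added after their values were seen. Markers of photoreceptors, islet and pituitary, and dividing cells were read beside them. So were lists of other retinal neurons, oligodendrocytes, lens and fast muscle. In these, 3 of 8, 3 of 7, 4 of 8 and 2 of 6 tested IDs in that order were lowest in miR-34a-/- replicate 1. Alternatives were DESeq2 size factors, no filter on low counts, the DESeq2 1.42.0 Wald test, a block for the replicate number, and fits that each left out 1 library. For the balance they were a prior count of 5, neurod1 counted as a progenitor gene, summed CPM and, chosen after seeing the data, the markers without the pax6a and snap25a pairs.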

Additional observations from a re-analysis of the deposited data

How the results depend on the processing

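With all libraries kept, no alternative called a marker. Leaving out 1 library gave 0 to 2 marker calls, the 2 being elavl3 and SNAP25 ENSDARG00000058117 without miR-34a-/- replicate 1. The count over all genes went from 500 to 190 to 3022 when 1 library was left out, the highest without miR-34a-/- replicate 1, and the 3 calls in the neural lists to 1 to 22. With the replicate number as a block, 238 genes, 0 markers and 1 list gene (VIM) were called. Deviations of same-numbered libraries over the 500 most variable genes correlated at -0.33, 0.08 and -0.43. With 3 libraries per genotype, these values cannot decide whether the numbers pair the libraries. Fitted values near 0 changed sign with no call. sox2 came to 0.0031 with DESeq2 size factors, 0.00093 without the filter and 0.0036 with the DESeq2 Wald test, and SNAP25 ENSDARG00000020609 to 0.0033, 0.0011 and 0.0032. With 1 library left out, sox2 ran from -0.0516 to 0.0504, SNAP25 ENSDARG00000020609 from -0.0809 to 0.119, PAX6 ENSDARG00000045936 from -0.0188 to 0.159, neurod1 from -0.13 to 0.0449 and syt1a from -0.182 to 0.0151, the highest without miR-34a-/- replicate 1 except for PAX6. The cause of these changes was not tested. The balance difference lay between -0.132 and -0.039 in all alternatives, -0.116 without the pairs. neurog1 had the fewest counts of the 12 IDs, 61 to 109 per library.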
